A study of Brassica napus with 6 samples.

Results

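Glucosinolates, flavonoids, isoprenoids and waxes are the main specialised metabolites of Brassica plants. In the table of genes that differed between rapeseed (Brassica napus) silique walls of a long-silique and a short-silique pool, 40 of 3248 listed genes belonged to their classes. Members were the rows whose functional class began with the secondary metabolism headings sulfur-containing (13 genes), flavonoids (14), isoprenoids (6), N misc (3) or wax (0), or with the heading myrosinases (4). A further 2 genes, lectin-like genes of the myrosinase heading in the first 6 Mb of chromosome C02 (ending at 1.52 and 4.36 Mb), were left out by position. The members nearest to that limit lay at 21.8 Mb on A02 and 41.4 Mb on C02. The label of the set matches the descriptions only in part: no gene carried the wax class, and several members of the flavonoid class were assigned to Arabidopsis loci known for other pathways, as given below.

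The silique wall is the pod tissue that encloses the seeds. It was sampled 15 days after flowering from accessions of an association population. Material of 12 long-silique accessions was mixed in equal parts into one pool and that of 11 short-silique accessions into the other, and 3 libraries of total RNA were sequenced per pool. A value of a pool is thus an average over accessions, and genotypes and differences among accessions within a pool were not resolved. Both pools came from the same species, tissue and stage, and the labels name no treatment. Whether the 3 libraries per pool stem from different plants or from repeated preparation of the same RNA is not stated. The spread that p-values rest on is that between these libraries and may be technical. Positions are those of the table, on the Darmor reference genome; the genome release is not given in the sources used here.

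Glucosinolates are sulfur-rich glycosides of the cabbage family. Their side chains are built from amino acids, the core is completed by a C-S lyase, a glucosyltransferase and sulfotransferases, and the side chain is then modified. When tissue is damaged, myrosinase cleaves them, and specifier proteins decide whether isothiocyanates or nitriles are released. Flavonoids are made from phenylpropanoids through chalcone isomerase, flavanone 3-hydroxylase and dihydroflavonol reductase towards flavonols, anthocyanins and proanthocyanidins. Isoprenoids include the carotenoids of plastids and the volatile terpenes.

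Library totals recovered from counts and FPKM (fragments scaled by gene length and library total) ranged from 22892442 to 30259269 reads, and 3 counts in a library correspond to 0.0991 to 0.131 CPM (counts scaled by the library total). The members together held 89.2 to 95.3 CPM in the long libraries and 126 to 147 CPM in the short libraries, and, without the most abundant member, 75.4 to 76.8 and 90.7 to 113 CPM. As a check of tissue, listed genes were matched by words in their description. The 6 with seed storage, oleosin or late embryogenesis abundant words summed to 11.2 to 12.2 CPM in the long and 11.6 to 15.1 CPM in the short libraries. The long pool had 2 of them higher and 4 lower (2 and 2 called). The 7 listed genes with pollen or stamen words in their description summed to 12.2 to 14.9 and 20.8 to 26.0 CPM, with 3 higher and 4 lower (1 and 2 called). The chlorophyll-binding protein gene BnaC07g09400D stood at 223 to 254 and 86.1 to 150 CPM, and 0 of these 14 genes were at 0 throughout a pool. The part of these tissues in the results below was not tested, and fewer cells of a type and less RNA per cell cannot be told apart in such samples. Because only genes that the authors called are listed, the tissue label could be checked no further.

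By the authors' deposited table, the long pool was higher for 14 members and lower for 26. Thus 35% of the members were higher, where 34.4% of all listed genes were higher and 65.6% lower. Of the 40 members, 32 passed the filter on low counts, and 16 of these (50%) were called here, 6 higher and 10 lower (quasi-likelihood test of edgeR, with an adjusted p of 0.05 or less over 65264 genes by Benjamini and Hochberg and a p of 0.005 or less). Of all 2574 genes tested, 66.6% were called, 23.1% higher and 43.5% lower, so the members were called no more often than the listed genes at large. The median log2 fold change, long over short, was -1.14 over the tested members and -1.22 over all tested genes. Every listed gene had been selected by the authors for a difference between these same libraries, so calls and folds describe the members and are not independent evidence. The libraries of the pools did not overlap for 38 of the 40 members, nor for 95.3% of all listed genes.

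The split of calls rests on the scaling of the libraries. With TMM over the listed genes, which raised the median log2 fold change by 0.78, 12 members were called higher and 1 lower, where 35.6% and 12.8% of all tested genes were. With DESeq2 size factors (median shift 0.93) 12 and 0 members were called, against 35.5% and 10.8% of all tested genes; the DESeq2 Wald test with the recovered totals called 6 and 11, against 20.4% and 39.0%. Both scalings take most genes as unchanged, whereas all listed genes had been selected for a change. All 32 tested members kept their direction in these and in all other fits run. The authors' absolute log2 fold change was at least 1 for every listed gene, above both median shifts. The direction could thus hardly change, and that it was kept is no further support. In the paragraphs below a member is said to have risen or fallen only where it was called with the recovered totals. With TMM 9 of the 16 calls ended, all among the members that fell. Of these, only BnaC01g43710D was still called, and with DESeq2 size factors its call ended too. Both scalings also added calls for 6 members that were higher in the long pool but missed the threshold with the recovered totals: BnaC03g03210D, BnaC09g00410D, BnaC09g00420D, BnaC01g37130D, BnaA08g05410D and BnaC04g56940D. By class, higher and lower calls went from 2 and 2 to 5 and 0 for the sulfur-containing members under either scaling, and from 1 and 4 to 3 and 0 for the flavonoids. They went from 1 and 2 to 1 and 0 for the isoprenoids and from 1 and 1 to 1 and 0 for N misc. The myrosinase heading went from 1 and 1 to 2 and 1 with TMM and to 2 and 0 with DESeq2 size factors.

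**Figure D1:**
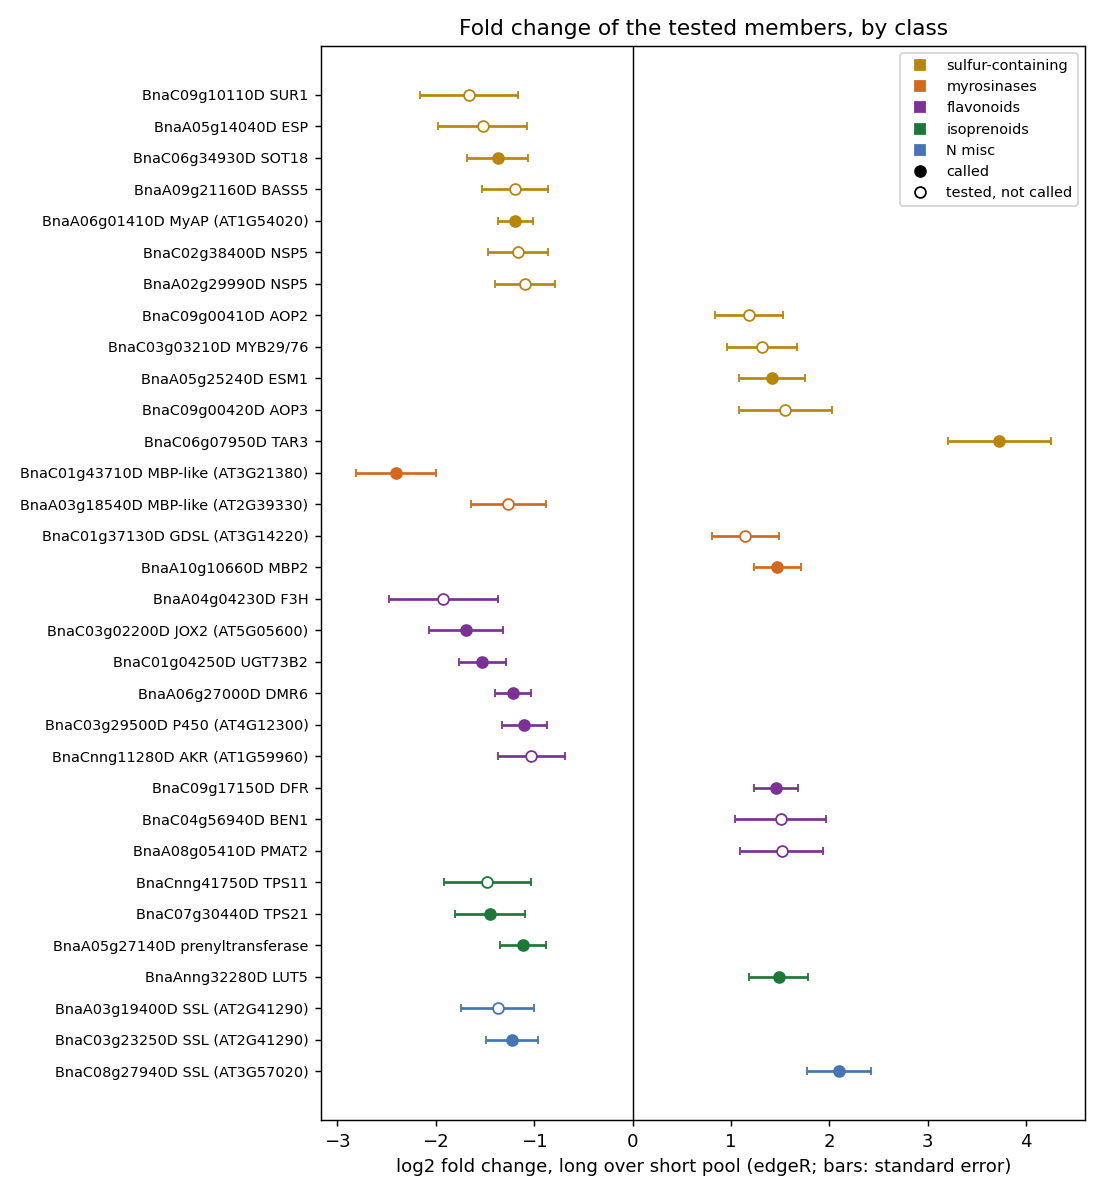
Log2 fold changes (long over short pool, edgeR, x axis) of the 32 tested members, 1 line each, with bars for the standard error and colours for the class; filled points were called. The largest values were 3.73 for BnaC06g07950D and -2.40 for BnaC01g43710D, and both signs occur in every class.

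The long pool was higher for 5 of the 13 sulfur-containing members and lower for 8, and of the 12 tested, 2 rose and 2 fell. The 5 genes of glucosinolate synthesis split by step. Both copies assigned to the side-chain dioxygenase locus AT4G03050 were higher in the long pool, and the genes of core synthesis were lower. Only 1 of the 5, a sulfotransferase, passed the test.

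The pair of side-chain dioxygenase genes lies 8.7 kb apart near the start of C09, with no other listed gene between. Their descriptions name different enzymes, AOP2 and AOP3, although both genes were assigned to the single locus AT4G03050. Description and assigned locus thus do not match for both genes. BnaC09g00410D (C09, 214921 to 217230) is described as AOP2, which in Arabidopsis turns methylsulfinylalkyl into alkenyl glucosinolates. It stood at 2.14, 2.15 and 2.32 CPM in long replicates 1, 2 and 3 and at 0.589, 1.40 and 0.885 CPM in short replicates 1, 2 and 3. All long libraries lay above all short libraries, with a log2 fold change of 1.18 ± 0.34 (SE) that missed the threshold (adjusted p by edgeR = 0.106). Without short replicate 2 it was called (1.57). BnaC09g00420D (C09, 225892 to 227697) is described as AOP3, which makes hydroxyalkyl glucosinolates in Arabidopsis, and stood at 0.777, 1.69 and 1.05 CPM in long replicates 1, 2 and 3 and at 0.157, 0.581 and 0.443 CPM in short replicates 1, 2 and 3. Its log2 fold change was 1.55 ± 0.47 (SE; adjusted p = 0.135), also without overlap.

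Among the genes of core synthesis, BnaC06g34930D (C06, 34135508 to 34136542) encodes a desulfoglucosinolate sulfotransferase described as SOT18, which adds the final sulfate, mainly to aliphatic glucosinolates in Arabidopsis. It stood at 0.738, 1.16 and 1.14 CPM in long replicates 1, 2 and 3 and at 2.94, 2.46 and 2.47 CPM in short replicates 1, 2 and 3. It fell by 1.37 on the log2 scale (SE 0.31; adjusted p by edgeR = 0.0193), and no long library reached the lowest short library. The call of BnaC06g34930D ended without long replicate 1, long replicate 2, short replicate 1 or short replicate 3 (log2 fold changes of -1.19, -1.49, -1.28 and -1.41, in this order). BnaC06g35000D, described as SOT16, which sulfates indolic glucosinolates, lies 36.8 kb further along C06. It did not pass the filter on low counts, with 4 reads over the long and 23 over the short libraries, or 1 to 5.54 per library total (95% exact interval 1.89 to 22.0, for counting error only here and below) and libraries that overlap. BnaC09g10110D, described as the C-S lyase SUR1, stood at 0.211 ± 0.0907 CPM in the long and 0.682 ± 0.307 CPM in the short pool (SD, n = 3), and its log2 fold change was -1.66 ± 0.50 (SE; adjusted p = 0.123).

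The regulator BnaC03g03210D (C03, 1549341 to 1550768) was given the locus of MYB76 and is described as a Brassica MYB29, both of which activate aliphatic glucosinolate genes in Arabidopsis. It stood at 1.55, 1.98 and 3.49 CPM in long replicates 1, 2 and 3 and at 0.981, 0.820 and 0.996 CPM in short replicates 1, 2 and 3. Long replicate 3 was the highest library, and the pools did not overlap. The log2 fold change was 1.32 ± 0.36 (SE; adjusted p by edgeR = 0.0639), and without long replicate 3 it was 0.93. BnaA09g21160D, classed as transport and described as BASS5, a plastid transporter of the keto acids used for chain elongation, stood at 0.834 ± 0.170 CPM in the long and 1.92 ± 0.407 CPM in the short pool (SD, n = 3), and its log2 fold change was -1.20 ± 0.34 (SE; adjusted p = 0.0842).

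The breakdown genes of the sulfur-containing class held 1 member that rose, 1 that fell and 3 that missed the threshold, all 3 lower in the long pool. BnaA05g25240D (A05, 18719135 to 18721165) is described as the epithiospecifier modifier ESM1, which in Arabidopsis lowers nitrile and favours isothiocyanate formation. It stood at 4.35, 4.13 and 3.58 CPM in long replicates 1, 2 and 3 and at 0.746, 1.5 and 2.25 CPM in short replicates 1, 2 and 3. Every long library was above every short library, and the gene rose, with 1.42 ± 0.33 (SE) as its log2 fold change (adjusted p by edgeR = 0.0251). The call of BnaA05g25240D ended without long replicate 1, long replicate 2, long replicate 3, short replicate 1 or short replicate 2 (log2 fold changes of 1.36, 1.40, 1.49, 1.10 and 1.42, in this order). The specifier proteins that in Arabidopsis direct breakdown to nitriles were lower. BnaC02g38400D, described as NSP5, stood at 1.90, 1.42 and 2.88 CPM in long replicates 1, 2 and 3 and at 4.24, 3.62 and 5.94 CPM in short replicates 1, 2 and 3. BnaA02g29990D, the NSP5 copy on the A subgenome, stood at 1.67, 1.19 and 1.70 CPM in long replicates 1, 2 and 3 and at 4.04, 2.19 and 3.50 CPM in short replicates 1, 2 and 3. Short replicate 2 was the lowest short library for both copies, and neither copy overlapped between pools.

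The log2 fold changes of the NSP5 copies were -1.16 ± 0.30 (SE) for BnaC02g38400D and -1.09 ± 0.31 (SE) for BnaA02g29990D (adjusted p by edgeR = 0.0526 and 0.0843). Without short replicate 2 both were called (-1.31 and -1.31), and BnaC02g38400D also was without long replicate 3 (-1.47) and by the DESeq2 Wald test (adjusted p = 0.0408). BnaA05g14040D, described as the epithiospecifier protein ESP, which promotes nitriles and epithionitriles, stood at 0.306 ± 0.0395 CPM in the long and 0.883 ± 0.341 CPM in the short pool (SD, n = 3), and its log2 fold change was -1.52 ± 0.46 (SE; adjusted p = 0.124). ESM1 and these 3 specifier genes thus differed in sign, though only ESM1 passed the test.

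The most abundant member per length was BnaA06g01410D (A06, 870033 to 870820), described as a myrosinase-associated protein of the GDSL lipase family, with 23.2 FPKM in the long and 52.9 FPKM in the short pool. The next member, BnaA06g27000D, had 6.06 and 14 FPKM. BnaA06g01410D stood at 13.9, 19.5 and 15.1 CPM in long replicates 1, 2 and 3 and at 35.8, 34.5 and 40.4 CPM in short replicates 1, 2 and 3. The 3 libraries of a pool lay close together and far from the other pool, and the gene fell by 1.19 on the log2 scale (SE 0.18; adjusted p by edgeR = 0.000690). This call held in all 6 fits that left out 1 library and ended with TMM (log2 fold change of -0.41).

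The largest change of any tested member was that of BnaC06g07950D (C06, 8625090 to 8626876). It is classed with alliinases and described as tryptophan aminotransferase-related protein 3, a relative of the TAA1 enzyme of auxin synthesis. It stood at 3.50, 4.20 and 1.18 CPM in long replicates 1, 2 and 3 and at 0.235, 0.103 and 0.332 CPM in short replicates 1, 2 and 3. Long replicate 3 was well below the other long libraries but still above every short library. It rose, with 3.73 ± 0.52 (SE) as its log2 fold change (adjusted p by edgeR = 0.000577), and the value lay between 3.37 and 4.13 when 1 library was left out, with the call kept.

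**Figure D2:**
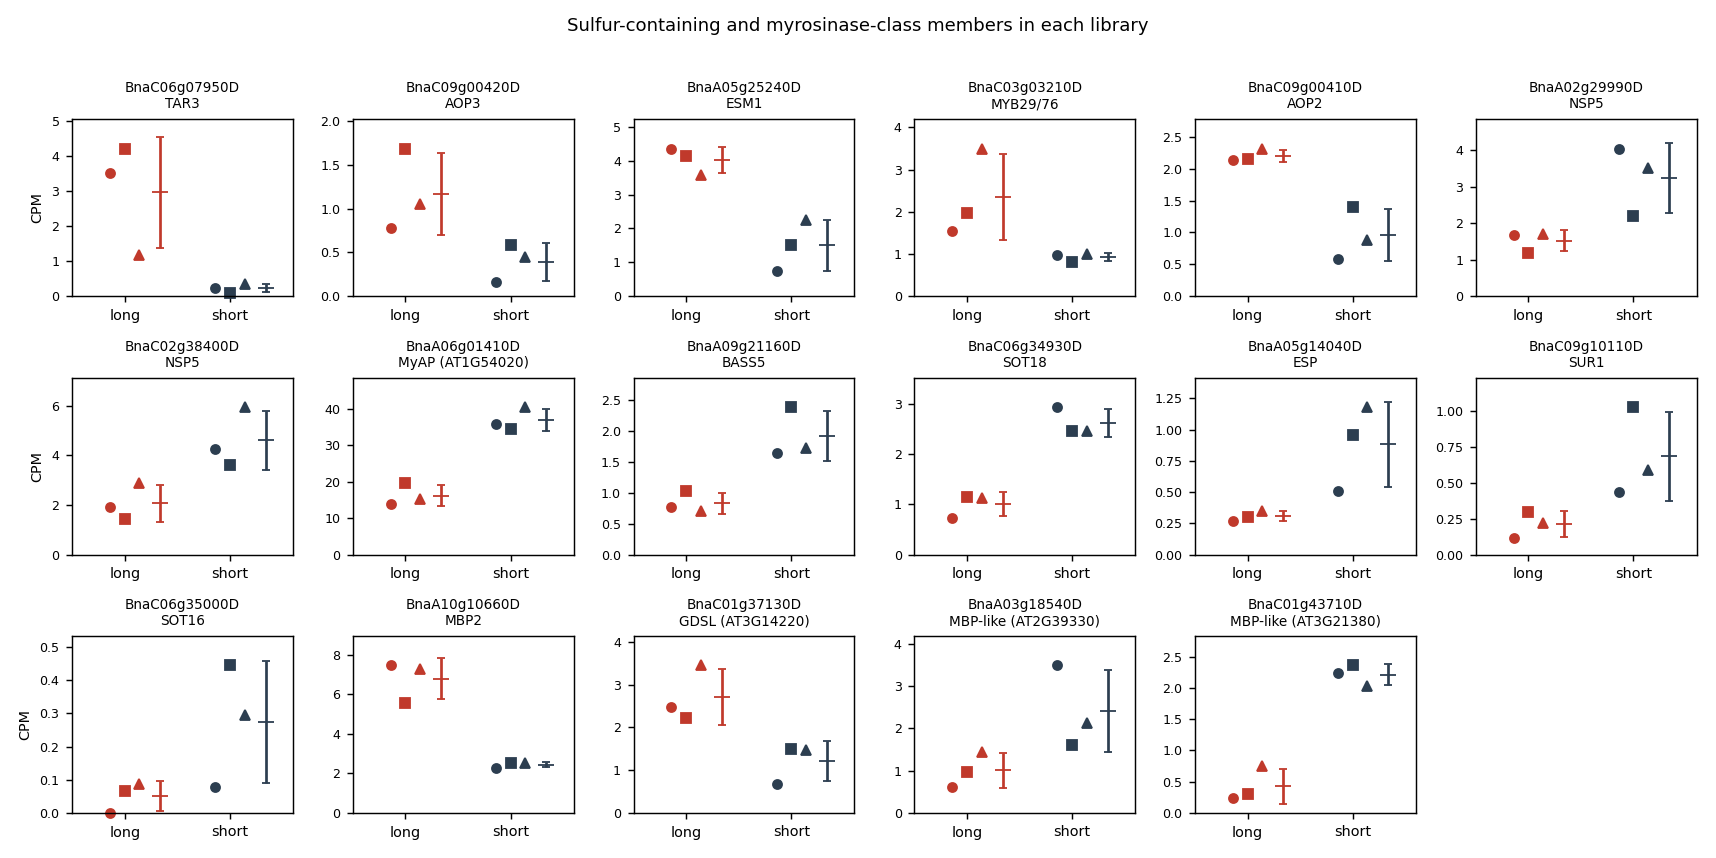
CPM (y axis, each panel from 0 on its own scale) of the 13 sulfur-containing and 4 myrosinase-class members in the 3 long (red) and 3 short (dark) libraries; circles, squares and triangles are replicates 1, 2 and 3, and bars give the mean and SD, cut at 0. All panels but that of BnaC06g35000D show pools that do not overlap.

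The 4 members of the myrosinase heading are lectin or lipase genes and not myrosinases. Jacalin lectins of the myrosinase-binding family form complexes with myrosinase in Brassica. Of the 4, 1 rose, 1 fell and 2 missed the threshold. BnaA10g10660D (A10, 9054787 to 9056970), a myrosinase-binding protein gene assigned to AT1G52030 (MBP2), stood at 7.46, 5.59 and 7.29 CPM in long replicates 1, 2 and 3 and at 2.28, 2.53 and 2.51 CPM in short replicates 1, 2 and 3. It rose, with 1.47 ± 0.24 (SE) as its log2 fold change (adjusted p by edgeR = 0.00134), and the call held without each library. The pools were separated by more than the spread within either.

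BnaC01g43710D (C01_random, 3302298 to 3304616) is described as myrosinase-binding protein-like and was assigned to the lectin locus AT3G21380. It stood at 0.233, 0.297 and 0.743 CPM in long replicates 1, 2 and 3 and at 2.24, 2.36 and 2.03 CPM in short replicates 1, 2 and 3. It fell by 2.40 on the log2 scale (SE 0.41; adjusted p by edgeR = 0.00208), the largest decrease among the tested members. All short libraries were near the same level, and long replicate 3 was the highest long library. Another lectin gene, BnaA03g18540D (AT2G39330), stood at 0.622, 0.958 and 1.44 CPM in long replicates 1, 2 and 3 and at 3.49, 1.61 and 2.14 CPM in short replicates 1, 2 and 3. Short replicate 1 led its pool, and the log2 fold change was -1.26 ± 0.38 (SE; adjusted p = 0.126).

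BnaC01g37130D (C01, 36337699 to 36339419), a GDSL lipase gene assigned to AT3G14220, the Arabidopsis locus next to that of ESM1, stood at 2.49, 2.21 and 3.45 CPM in long replicates 1, 2 and 3 and at 0.667, 1.5 and 1.48 CPM in short replicates 1, 2 and 3. No short library reached the lowest long library. Its log2 fold change was 1.15 ± 0.34 (SE; adjusted p by edgeR = 0.123), and without short replicate 1 it was 0.86.

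The long pool was higher for 5 of the 14 flavonoid-class members and lower for 9, and of the 9 tested, 1 rose and 4 fell. Enzymes of the main flavonoid route were few and went both ways. The gene that rose encodes a dihydroflavonol reductase, and those that fell encode a flavonol glucosyltransferase and 3 oxygenases, of which 2 are known in Arabidopsis for hormone turnover.

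BnaC09g17150D (C09, 13957355 to 13959131), the dihydroflavonol 4-reductase gene DFR, whose enzyme leads towards anthocyanins and proanthocyanidins, stood at 8.90, 11.2 and 7.47 CPM in long replicates 1, 2 and 3 and at 3.14, 3.42 and 3.50 CPM in short replicates 1, 2 and 3. The short libraries were nearly equal and all lay far below the lowest long library. It rose, with 1.45 ± 0.22 (SE) as its log2 fold change (adjusted p by edgeR = 0.000892), a call kept without each library. BnaA09g34850D, the chalcone isomerase gene of an earlier step, had 9, 10 and 7 counts in the long libraries and 0 in all short libraries. It was at least 8.99-fold higher when the short pool is set to a limit of 3 counts, and did not pass the filter on low counts. BnaA04g04230D, the flavanone 3-hydroxylase gene F3H that acts between these steps, stood at 0.466, 0.0991 and 0.218 CPM in long replicates 1, 2 and 3 and at 0.706, 1.61 and 0.627 CPM in short replicates 1, 2 and 3. Its log2 fold change was -1.92 ± 0.55 (SE; adjusted p by edgeR = 0.100), and -1.36 without short replicate 2, its highest library. The listed copies of the chalcone isomerase and DFR genes were thus higher, and that of F3H lower, in the long pool.

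Genes of flavonoid decoration went both ways, and only the one described first passed the test. BnaC01g04250D (C01, 2230184 to 2231635) is described as UGT73B2, a flavonol 7-O-glucosyltransferase, and stood at 2.56, 2.21 and 3.01 CPM in long replicates 1, 2 and 3 and at 6.28, 8.89 and 7.23 CPM in short replicates 1, 2 and 3. It fell by 1.53 on the log2 scale (SE 0.24; adjusted p by edgeR = 0.00109), and the highest long library was far below the lowest short library. The acyltransferase gene BnaA08g05410D, described as phenolic glucoside malonyltransferase 2, stood at 1.05 ± 0.241 CPM in the long and 0.363 ± 0.111 CPM in the short pool (SD, n = 3), and its log2 fold change was 1.52 ± 0.42 (SE; adjusted p = 0.0834). BnaA03g12040D, described as UGT79B6, which in Arabidopsis glucosylates flavonols of pollen, had 34 reads over the long libraries and 5 over the short ones, which is 7.06 to 1 per library total (95% exact counting interval 2.75 to 23.1). BnaC05g28300D, described as UGT91C1, had 4 and 36 reads, or 1 to 8.67 (95% exact counting interval 3.11 to 33.5). Neither of the last 2 passed the filter.

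The class also held oxygenases known in Arabidopsis for the turnover of defence hormones. BnaA06g27000D (A06, 18537568 to 18542800) was assigned to the DMR6 locus, whose enzyme hydroxylates salicylic acid, and ranked next to BnaA06g01410D in abundance per length. It stood at 9.79, 10.2 and 9.44 CPM in long replicates 1, 2 and 3 and at 19.4, 25.8 and 23.0 CPM in short replicates 1, 2 and 3. It fell by 1.21 on the log2 scale (SE 0.18; adjusted p by edgeR = 0.000705), with long libraries within a narrow range and a call kept without each library. BnaC03g02200D, assigned to AT5G05600 (JOX2, a jasmonate hydroxylase), stood at 0.738, 0.859 and 0.349 CPM in long replicates 1, 2 and 3 and at 2.75, 1.81 and 1.88 CPM in short replicates 1, 2 and 3. It fell by 1.69 on the log2 scale (SE 0.37; adjusted p by edgeR = 0.0163). The call of BnaC03g02200D ended without long replicate 1, long replicate 3 or short replicate 1 (log2 fold changes of -1.78, -1.42 and -1.48, in this order). A pair of copies of AT3G55970 (JOX3, a jasmonate hydroxylase too) lay on A04 and C04 and did not pass the filter. BnaA04g03320D had 2 reads over the long libraries and 25 over the short ones, or 1 to 12.0 (95% exact counting interval 3.00 to 105), and BnaC04g25200D had 3 and 26, or 1 to 8.35 (2.56 to 43.1).

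BnaC03g29500D (C03, 17631453 to 17633521), described as a cytochrome P450 and classed with flavonoid 3′-monooxygenases, stood at 2.72, 3.14 and 3.10 CPM in long replicates 1, 2 and 3 and at 7.02, 6.02 and 6.20 CPM in short replicates 1, 2 and 3. It fell by 1.10 on the log2 scale (SE 0.23; adjusted p by edgeR = 0.00971). The call of BnaC03g29500D ended without long replicate 1 (log2 fold change of -1.04). The remaining tested genes were BnaC04g56940D, assigned to the brassinosteroid-related reductase locus BEN1, at 0.769 ± 0.134 CPM in the long and 0.264 ± 0.127 CPM in the short pool (SD, n = 3), and the aldo/keto reductase gene BnaCnng11280D, at 1.02 ± 0.179 CPM in the long and 2.06 ± 0.601 CPM in the short pool (SD, n = 3). Their log2 fold changes were 1.5 ± 0.46 (SE) and -1.03 ± 0.34 (SE; adjusted p by edgeR = 0.144 and 0.213). In the authors' deposited table BnaCnng11280D had the smallest absolute log2 fold change of all members, 1.01, where the lowest listed value was 1.

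**Figure D3:**
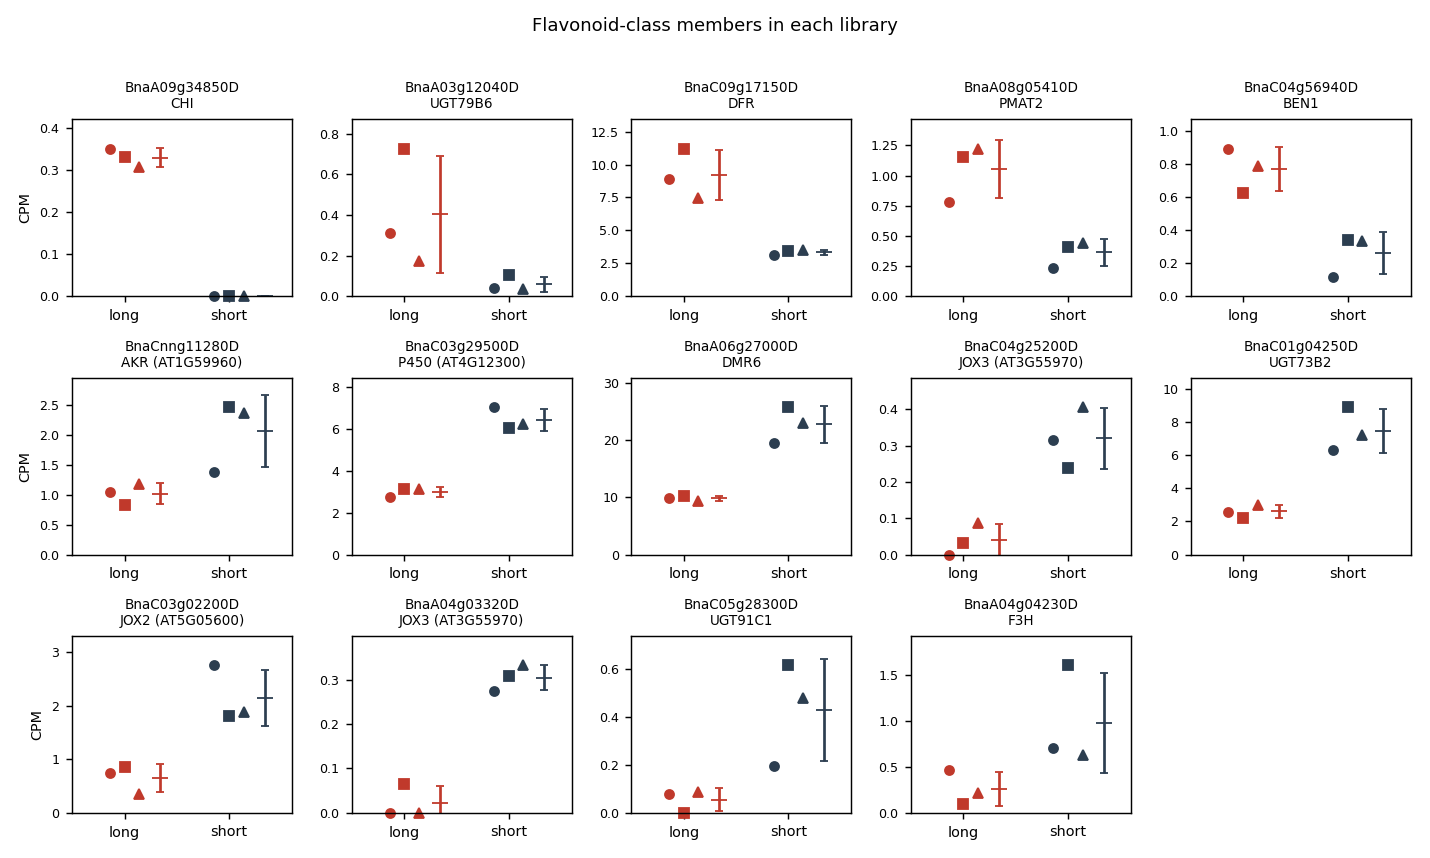
CPM (y axis, each panel from 0 on its own scale) of the 14 flavonoid-class members in the 3 long (red) and 3 short (dark) libraries; circles, squares and triangles are replicates 1, 2 and 3, and bars give the mean and SD, cut at 0. No panel shows overlapping pools, and BnaA09g34850D was at 0 in every short library.

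The long pool was higher for 1 of the 6 isoprenoid members and lower for 5. The higher one belongs to carotenoid synthesis, and all 4 terpene synthase genes were lower. BnaAnng32280D (Ann_random, 36880893 to 36883251) is described as LUT5, a carotenoid ring hydroxylase of lutein synthesis. It stood at 5.09, 3.17 and 6.03 CPM in long replicates 1, 2 and 3 and at 1.33, 1.64 and 2.10 CPM in short replicates 1, 2 and 3. Long replicate 2 was the lowest of its pool and still above all short libraries, and the gene rose, with 1.48 ± 0.30 (SE) as its log2 fold change (adjusted p by edgeR = 0.00805). The call of BnaAnng32280D ended without long replicate 1 or long replicate 3 (log2 fold changes of 1.43 and 1.28, in this order).

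Among the terpene synthase genes, BnaC07g30440D (C07, 34916988 to 34918796) is described as TPS21, which makes the sesquiterpenes caryophyllene and humulene in Arabidopsis flowers. It stood at 1.59, 1.52 and 2.71 CPM in long replicates 1, 2 and 3 and at 4.12, 8.37 and 3.28 CPM in short replicates 1, 2 and 3. It fell by 1.45 on the log2 scale (SE 0.36; adjusted p by edgeR = 0.0405). Short replicate 2 was far above the other libraries, and the pools did not overlap. The call of BnaC07g30440D ended without long replicate 1, long replicate 2, short replicate 1 or short replicate 2 (log2 fold changes of -1.33, -1.30, -1.60 and -0.94, in this order). BnaA06g26510D, the other TPS21 copy, had all of its 25 reads in short replicate 2 and 0 in the other libraries, so that its listing rests on 1 library and its pools overlap at 0.

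BnaCnng41750D (Cnn_random, 40591177 to 40593980), described as the barbatene synthase TPS11, another sesquiterpene synthase of Arabidopsis flowers, stood at 1.01, 0.430 and 0.306 CPM in long replicates 1, 2 and 3 and at 2.35, 1.33 and 1.22 CPM in short replicates 1, 2 and 3. The highest long library came close to the lowest short library, and the log2 fold change was -1.48 ± 0.44 (SE; adjusted p by edgeR = 0.120). BnaA10g08490D, described as terpenoid synthase 1, had 0 counts in all long libraries and 17, 18 and 7 counts in the short libraries. It was at least 13.5-fold lower when the long pool is set to a limit of 3 counts, and did not pass the filter. BnaA05g27140D (A05, 19630925 to 19633073), described as a prenyltransferase, stood at 2.49, 2.31 and 2.36 CPM in long replicates 1, 2 and 3 and at 5.34, 4.82 and 5.35 CPM in short replicates 1, 2 and 3. The libraries of each pool were within a narrow range, and it fell by 1.11 on the log2 scale (SE 0.24; adjusted p by edgeR = 0.0129). The call of BnaA05g27140D ended without long replicate 1 or long replicate 2 (log2 fold changes of -1.14 and -1.09, in this order).

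The 3 members of the N misc heading are described as strictosidine synthase or its relatives. That enzyme makes alkaloids in Rauvolfia, and no such alkaloid role is known for the related Arabidopsis proteins. BnaC08g27940D (C08, 28759268 to 28761332), assigned to AT3G57020, stood at 2.91, 3.34 and 2.49 CPM in long replicates 1, 2 and 3 and at 0.589, 0.889 and 0.553 CPM in short replicates 1, 2 and 3. It rose, with 2.09 ± 0.33 (SE) as its log2 fold change (adjusted p by edgeR = 0.000978), and all 6 fits that left out 1 library kept the call. Every long library was far above every short library.

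Both copies of AT2G41290 were lower in the long pool. BnaC03g23250D (C03, 12920342 to 12922472) stood at 3.58, 3.77 and 2.66 CPM in long replicates 1, 2 and 3 and at 6.87, 10.9 and 5.75 CPM in short replicates 1, 2 and 3. BnaA03g19400D (A03, 9179762 to 9181920) stood at 1.44, 1.22 and 1.22 CPM in long replicates 1, 2 and 3 and at 2.28, 5.64 and 2.10 CPM in short replicates 1, 2 and 3. In both, short replicate 2 was the highest library and the pools did not overlap. The first fell by 1.23 on the log2 scale (SE 0.26; adjusted p by edgeR = 0.0133), and the second had a log2 fold change of -1.37 ± 0.37 (SE) that missed the threshold (adjusted p = 0.0718). The call of BnaC03g23250D ended without long replicate 1, long replicate 2, long replicate 3 or short replicate 2 (log2 fold changes of -1.28, -1.33, -1.09 and -0.91, in this order). For BnaA03g19400D the log2 fold change without short replicate 2 was -0.76, and without short replicate 1 or 3 it was called (-1.58 and -1.61).

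**Figure D4:**
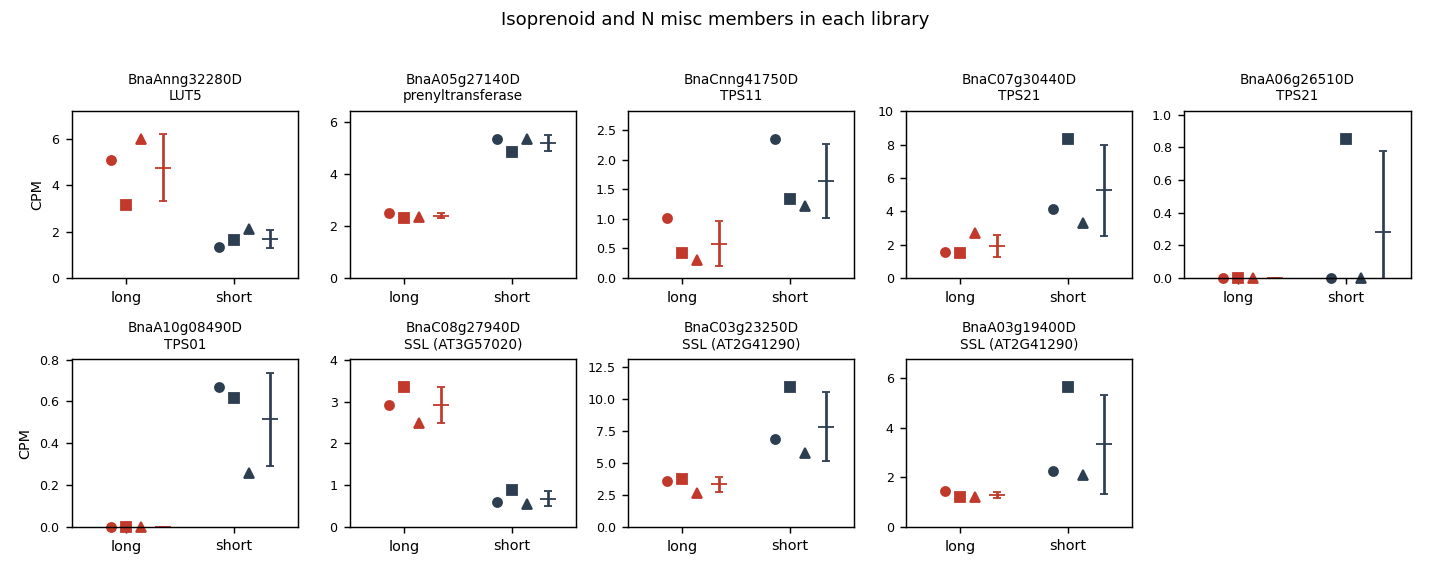
CPM (y axis, each panel from 0 on its own scale) of the 6 isoprenoid and 3 N misc members in the 3 long (red) and 3 short (dark) libraries; circles, squares and triangles are replicates 1, 2 and 3, and bars give the mean and SD, cut at 0. Short replicate 2 stands above the other short libraries for both TPS21 copies and both copies of AT2G41290.

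The members differed in how evenly the libraries of a pool agreed. Among the 39 members with reads in the short pool, 20 were highest in short replicate 2, or 51.3%, where the share over all listed genes was 34.01%. In 10 members short replicate 2 was at least 1.5 times the next short library, against 2 for short replicate 1 and 0 for short replicate 3. Over all listed genes these shares were 9.67%, 8.62% and 6.87%. No lower limit on counts was set for this. In short replicates 1, 2 and 3, BnaA03g12040D had 1, 3 and 1 counts and SOT16 had 2, 13 and 8. The 10 members were the TPS21 copies, the copies of AT2G41290, F3H, SUR1 and SOT16, all lower in the long pool, as well as BnaC09g00410D, BnaA03g12040D and BnaC08g27940D. For BnaC07g30440D, the AT2G41290 copies, F3H and BnaC09g00410D the values without this library are given above, and all kept their direction.

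The 40 members belong to 35 Arabidopsis loci, and 5 loci were present with 2 copies each. At each of these 5 loci the copies shared a direction: AT4G03050 (AOP) was higher in both copies, and NSP5, AT3G55970, TPS21 and AT2G41290 were lower in both. How often copies do so over all listed genes was not counted. Outside the members, listed copies of SDI1 and of CYP81F1 differed in direction, as given below. Only uniquely mapped reads were counted by the authors, so no read was counted for both copies of a locus. Whether reads of a copy were placed at the other was not tested, and copies are not taken as independent genes. No other listed gene was assigned to a locus of a member. Of the 18 members on the A subgenome 6 were higher and of the 22 on the C subgenome 8 (33.3% and 36.4%), against 33.5% and 35.3% of all listed genes on these subgenomes.

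Further genes of these pathways were looked up by Arabidopsis locus in lists of 35 loci for glucosinolate synthesis, 11 for its regulation and transport, 14 for breakdown, 41 for flavonoids, 62 for isoprenoids and 32 for waxes. The table held 9 synthesis genes (3 higher, 6 lower, with 0 and 2 called), 4 regulation and transport genes (3 and 1, with 1 and 0 called), and 5 breakdown genes (2 and 3, with 2 and 0 called). It held 3 flavonoid genes (2 and 1, with 1 and 0 called), 5 isoprenoid genes (1 and 4, with 1 and 1 called) and 2 wax genes (0 and 2, with 0 and 1 called). The breakdown list differs from the breakdown class above. It lacks the locus of BnaA06g01410D, which fell, and holds that of the lectin gene BnaA10g10660D, which rose. A flavonoid and a wax gene in the first 6 Mb of A02 or C02 were left out. Over all listed genes, 34.4% were higher and 65.6% lower. Of all genes tested, 23.1% were called higher and 43.5% lower. With so few genes per list, the counts were not tested against these shares.

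Of these genes, 9 are not members. BnaAnng39320D (Ann_random, 44759021 to 44760506) was assigned to SDI1, a sulfur-deficiency protein that represses aliphatic glucosinolate synthesis in Arabidopsis. It stood at 2.10, 2.45 and 3.32 CPM in long replicates 1, 2 and 3 and at 0.118, 0.479 and 0.184 CPM in short replicates 1, 2 and 3. Its long libraries were all above its short libraries, and it rose, with 3.28 ± 0.44 (SE) as its log2 fold change (adjusted p by edgeR = 0.000299), a call kept without each library and with TMM. The other SDI1 gene, BnaA02g30450D, had a log2 fold change of -1.17 ± 0.42 (SE; adjusted p = 0.343). The regulator gene MYB122 (BnaC06g34910D), which acts on indolic glucosinolates, had one of 1.38 ± 0.46 (SE; adjusted p = 0.227).

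The 3 listed copies of CYP81F1, whose enzyme hydroxylates indolic glucosinolates in Arabidopsis, did not share a direction. BnaA01g00520D stood at 2.22, 2.25 and 4.24 CPM in long replicates 1, 2 and 3 and at 9.50, 4.31 and 11.3 CPM in short replicates 1, 2 and 3, and fell by 1.53 on the log2 scale (SE 0.35; adjusted p by edgeR = 0.0332). That call ended with TMM (-0.77) and without long replicate 1, long replicate 2, short replicate 1 or short replicate 3 (log2 fold changes of -1.38, -1.38, -1.43 and -1.26 in turn). Short replicate 2 was the lowest short library in this copy. BnaC01g01500D had a log2 fold change of -1.54 ± 0.58 (SE) with overlapping pools (adjusted p = 0.812). BnaC06g25040D had 13, 9 and 16 counts in the long libraries and 0 in all short libraries, at least 13.1-fold higher when the short pool is set to a limit of 3 counts.

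Both wax genes are copies of CER4, the reductase that makes the primary alcohols of cuticular wax. BnaC03g66380D stood at 0.700, 0.958 and 0.743 CPM in long replicates 1, 2 and 3 and at 3.06, 2.80 and 1.51 CPM in short replicates 1, 2 and 3. It fell by 1.61 on the log2 scale (SE 0.35; adjusted p by edgeR = 0.0155). Its call ended with TMM (-0.81) and without any single library other than short replicate 3, where the log2 fold change lay between -1.76 and -1.42. BnaA08g11440D stood at 0.505, 0.826 and 0.568 CPM in long replicates 1, 2 and 3 and at 1.41, 2.94 and 1.22 CPM in short replicates 1, 2 and 3, with a log2 fold change of -1.54 ± 0.40 (SE; adjusted p = 0.0558). Neither copy overlapped between the pools. The zeaxanthin epoxidase gene ZEP (BnaC08g48380D), of the carotenoid route, had a log2 fold change of -1.35 ± 0.38 (SE; adjusted p = 0.0841).

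Of the 16 called members, 8 kept their call in every fit that left out 1 library, a count that was not made for all called genes. These were the alliinase-like BnaC06g07950D, the myrosinase-associated BnaA06g01410D, both called lectin genes, DFR, UGT73B2, the DMR6 gene and the strictosidine synthase-like BnaC08g27940D. Of these, BnaC06g07950D, BnaA10g10660D, DFR and BnaC08g27940D rose and were also called with TMM and with DESeq2 size factors. Both scalings raise the log2 fold changes, and all 6 members that rose kept their call under them. These 2 settings thus give no further support to a higher call.

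**Figure D5:**
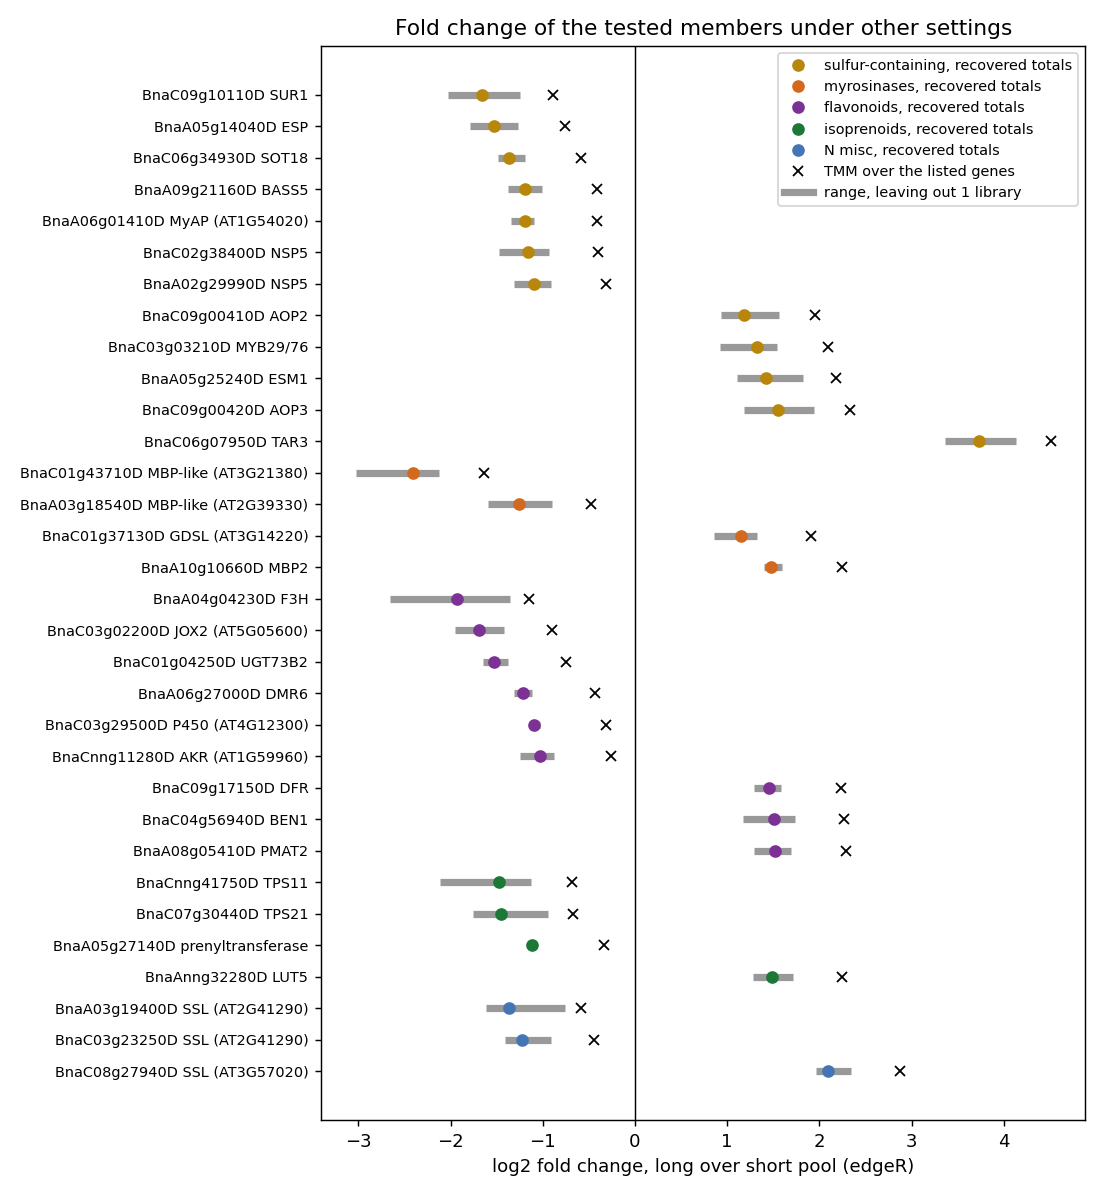
Log2 fold changes (long over short pool, edgeR, x axis) of the 32 tested members with the recovered totals (coloured points), their range when 1 library was left out (grey bars) and their value with TMM over the listed genes (crosses). Every cross lies to the right of its point, by a median of 0.78 over all tested genes. No member changes sign, which the selection of listed genes by fold change made likely.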

How the data were processed

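In all, 6 libraries of silique wall RNA were compared, 3 per pool. Per the labels' protocols, reads that passed quality filters were aligned to the genome of the cultivar Darmor, and those with a single location were quantified; the submitters' processing notes name edgeR and DESeq2 without versions, and the aligner is not given in the sources used here. The deposited table gives, for 3248 genes, the authors' counts and FPKM per library and their log2 fold change, p-value and false discovery rate, with 59362 further rows blank. The authors set limits of 0.05 on the false discovery rate and 0.005 on the p-value, per the labels; 211 listed genes, 1 of them a member, have a p-value above that limit.

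Because the table holds genes selected for a difference, column sums are not depths. Library totals were recovered from the deposited counts, FPKM and gene spans (counts of at least 200, FPKM of at least 5), and the number of genes the authors tested (65264) from their p-values and false discovery rates. Tests on counts used edgeR 4.0.16 under R 4.3.3 (filterByExpr, robust quasi-likelihood fit, no TMM factors, 3 long against 3 short libraries), and p-values were adjusted over 65264 genes; 2574 genes passed the filter. The script was tested on simulated data. Fold changes are log2, long over short, and a gene was called at an adjusted p of at most 0.05 and p of at most 0.005. Each standard error (SE) was derived as the absolute log2 fold change over the square root of the F statistic of the edgeR test. Counting intervals are exact binomial intervals at 95%, and a floor of 3 counts per pool bounds ratios against 0.

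Members and pathway lists were chosen with earlier results of these data known. Values in every library were planned for up to 3 higher and 3 lower members per class. These had the smallest p among members with a mean of at least 1 CPM, and copies at their Arabidopsis locus were included. A further planned rule, for members nearly absent from a pool, was met by none. Values of BnaC09g00410D, BnaC09g00420D, BnaC03g02200D, F3H, BnaA09g34850D, BnaA10g08490D and the wider-list genes shown per library were added after they were seen. Gene names come from the table's descriptions or the Arabidopsis loci it assigns; no identifier matched the RefSeq gene table, and no sequence was used here. Alternatives were TMM, DESeq2 1.42.0 size factors and its Wald test, no filter, a limit of 0.01, adjustment over the tested genes alone, a replicate block and leaving out each library.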

Additional observations from a re-analysis of the deposited data

How the results depend on the processing

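No tested member changed sign under any alternative, which the selection of listed genes by fold change made likely. Of all 2574 genes tested, 1713 were called. With adjustment over the genes tested alone 2180 were called. At an adjusted p of at most 0.01 there were 1112, and 1109 to 1434 when 1 library was left out. Among members, 6 were called higher and 10 lower; TMM gave 12 and 1, DESeq2 size factors 12 and 0 (with 11 lower by the DESeq2 Wald test), and adjustment over the genes tested alone 12 and 19, and at an adjusted p of at most 0.01 there were 5 lower. Leaving out 1 library gave 4 to 6 higher and 5 to 11 lower members. The filter on low counts was applied anew in each of these fits. Counts without 1 library, here and by class, thus include members untested with all libraries. These are BnaA10g08490D, called in 4 of the fits, and BnaC05g28300D, called in 1. The sulfur-containing class had 4 calls, 12 with adjustment over the genes tested alone, 2 at 0.01 and 2 to 6 without 1 library. The myrosinase class had 2, 4 with that adjustment and 2 to 2 without 1 library. Flavonoids had 5, 3 with TMM, 3 with DESeq2 size factors, 8 with that adjustment and 3 to 5 without 1 library. Isoprenoids had 3, and 1 with TMM, with DESeq2 size factors and at 0.01, and 1 to 4 without 1 library. N misc had 2, and 1 in those same 3 settings, and 1 to 3 without 1 library. The wax class held 0 members. Both scalings shift all genes by construction; the cause of the other changes was not tested. Replicate numbers did not pair the libraries (correlations of 0.041, 0.010 and 0.006 between same-numbered libraries), and the fit with the replicate block called 1228 genes and 14 members, 5 higher and 9 lower (sulfur-containing 3, myrosinase 2, flavonoid 5, isoprenoid 2, N misc 2). With all 6 libraries, the filter on low counts left 8 of 40 members untested. Without it, BnaA09g34850D and BnaA10g08490D were called as well (adjusted p by edgeR = 0.0117 and 0.00436). The call of BnaC07g30440D ended in that fit (adjusted p by edgeR = 0.0534).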
